A study of Mus musculus with 4 samples.

Results

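The NRF2 genes followed here were 10 genes picked by name: Nfe2l2, which encodes the transcription factor NRF2, Keap1, which encodes its inhibitor, and 8 core antioxidant targets (Nqo1, Gclc, Gclm, Txnrd1, Srxn1, Hmox1, Prdx1 and Slc7a11). All 10 were found by symbol among the 52459 genes listed in the full-length (FL) RNA-seq counts of intestinal stem cells (ISCs), and 9 of them had enough reads to be compared. The cells came from the small intestine of wild-type C57/Bl6 mice, 2 months old (young, ISC_2mth) or 22 months old (old, ISC_22mth), which the study's methods describe as female. Each age had 2 libraries, and each library was made from ISCs pooled from 5 animals, so that differences between single animals are not seen. Both ages were sorted by one gate, which dropped CD31+ and CD45+ cells and kept EPCAM+ cells that were CD166+, CD24med, CD44high, EPHB2high and GRP78low, and their RNA was amplified by SPIA, an isothermal method that copies whole transcripts.

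NRF2 is held at low levels in unstressed cells because KEAP1 presents it to a CUL3 ubiquitin ligase, which marks it for degradation. Electrophiles and oxidants modify cysteines of KEAP1, after which NRF2 accumulates in the nucleus, pairs with a small MAF protein and binds antioxidant response elements near genes for glutathione synthesis, thioredoxin recycling and detoxification. NRF2 is controlled largely at the protein level, which RNA counts do not measure. In the intestine the pathway is known for protection against dietary electrophiles, and in the fly gut NRF2 activity restrains the proliferation of stem cells.

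Promoter windows of RefSeq (build GRCm38.p6, from 250 bases before to 50 after the transcription start) were found for 8 of the 10 genes, with 3 windows for Txnrd1 and 1 for each of the others, and Gclc and Hmox1 had none. Each window was searched on both strands for TGACNNNGC, the core of the antioxidant response element, and for TGACTCA, the site of AP-1 factors, a family of FOS and JUN proteins. The antioxidant core was present for 5 of the 8 genes (Nfe2l2, Gclm, Txnrd1, Srxn1 and Prdx1), and 14.0% of the 27025 genes with windows held it. The AP-1 site was present for 2 of the 8, Srxn1 and Prdx1, with 2 sites each, against 5.95% of all genes. A match of letters describes the window and is no evidence of binding. The windows of the pair of genes that differed with age, Nfe2l2 and Gclm, and of Prdx1, in which both motifs overlap, read as follows, 5′ to 3′ along the gene, with the motifs in capitals.
Nfe2l2 (chr2:75704614-75704913, minus strand): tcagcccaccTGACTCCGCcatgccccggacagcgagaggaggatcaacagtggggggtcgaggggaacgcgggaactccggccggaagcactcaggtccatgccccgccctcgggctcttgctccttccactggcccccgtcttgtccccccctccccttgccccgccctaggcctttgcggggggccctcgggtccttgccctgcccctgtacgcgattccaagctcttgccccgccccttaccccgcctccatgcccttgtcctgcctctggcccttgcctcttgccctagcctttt
Gclm (chr3:122245307-122245606, plus strand): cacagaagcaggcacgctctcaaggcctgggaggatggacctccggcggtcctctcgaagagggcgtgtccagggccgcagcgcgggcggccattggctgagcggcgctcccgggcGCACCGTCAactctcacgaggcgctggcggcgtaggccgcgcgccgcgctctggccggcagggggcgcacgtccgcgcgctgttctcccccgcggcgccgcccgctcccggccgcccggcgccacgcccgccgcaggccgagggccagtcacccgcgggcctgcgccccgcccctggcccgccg
Prdx1 (chr4:116685349-116685648, plus strand): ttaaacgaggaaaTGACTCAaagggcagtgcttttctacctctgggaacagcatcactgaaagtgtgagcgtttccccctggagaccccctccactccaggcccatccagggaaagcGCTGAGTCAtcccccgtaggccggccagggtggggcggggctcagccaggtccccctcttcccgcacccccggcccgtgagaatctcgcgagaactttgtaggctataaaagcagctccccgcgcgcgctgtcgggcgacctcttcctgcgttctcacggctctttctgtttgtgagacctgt
Counting -1 as the base just before the start, the antioxidant core began at position -240 in Nfe2l2 (TGACTCCGC), at -134 in Gclm (GCACCGTCA, on the other strand) and at -133 in Prdx1 (GCTGAGTCA, on the other strand). In Prdx1 the AP-1 site beginning at -131 lies inside the antioxidant core, so the same bases match both motifs, and a separate AP-1 site began at -237. The windows of Keap1, Nqo1 and Slc7a11 held neither motif.

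Reads counted on genes came to between 11662654 and 15975698 per library, of which mitochondrially encoded genes took 62.6 and 65.7% in the young pools and 73.8 and 72.9% in the old pools. ISC markers were present at both ages (Lgr5 with 2518 to 3599 reads and Olfm4 with 14687 to 18866), and of the 10 on the list none was called by edgeR. An unadjusted p under 0.05 was reached by 6 of the 10, against 16.9% of all genes, with Axin2 (log2 fold change -0.46, FDR = 0.051), Sox9, Tnfrsf19 and Rgmb lower and Ascl2 and Slc12a2 higher in old ISCs. Markers of other lineages were present too, with Muc2 of goblet cells at 12493 to 19236 reads and Lyz1 of Paneth cells at 2485 to 9910. Enterocyte markers summed to 343 and 455 normalized CPM (CPM after the libraries were scaled by the TMM method) in young pools and to 849 and 687 in old pools, with 4 of 10 higher in old ISCs at an FDR under 0.05 (edgeR; 1.63% of all genes tested were) and none at 0. Paneth cell markers summed to 953, 728, 2100 and 815 normalized CPM in young pools 1 and 2 and old pools 1 and 2, with 2 of 9 higher. No goblet cell marker (of 8) or enteroendocrine marker (of 7) was called by edgeR (0 and 1 at an unadjusted p under 0.05). Goblet cell markers summed to 1948, 2566, 2660 and 2071 normalized CPM in young pools 1 and 2 and old pools 1 and 2. Enteroendocrine markers summed to 41.8, 156, 133 and 95.7 in the same order. Of 6 tuft cell markers 3 were tested, and 1 was called higher, Dclk1, with 4 and 4 reads in young and 42 and 19 in old pools. Dclk1 passed the filter only through the old pools. Of 14 leukocyte markers 2 had enough reads to be tested, Itgam and Ccr2. Itgam, with 148 and 196 reads in young and 254 and 252 in old pools, was called higher in old ISCs (edgeR, FDR = 0.030). Ccr2 had 0 and 0 reads in young and 13 and 16 in old pools, and passed the filter only through the old pools. Its call (FDR = 0.034) could therefore only be higher, and adds nothing to that of Itgam. Ptprc had 0 to 2 reads per library, 5 of the 14 were at 0 in all libraries, and the list summed to 11.5 and 14.0 normalized CPM in young and 22.9 and 22.9 in old pools, most of it Itgam. Endothelial and stromal markers summed to 0.454 to 1.33 normalized CPM, with 5 of 8 at 0. The part of these other cells in the values of the NRF2 genes was not tested, and in such bulk RNA fewer cells of a type and less RNA per cell cannot be told apart.

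Of the 9 NRF2 genes compared, 2 rose with age, Nfe2l2 and Gclm, and none fell. Neither call held with scaling by total counts, with offsets for GC content and length, or without young pool 1, as detailed with the other ways of processing. The calls are those of edgeR's quasi-likelihood test with Benjamini-Hochberg adjustment (FDR) over all 13692 genes with enough reads. In the same test 309 genes, or 2.26%, had an FDR under 0.05, with 223 higher in old ISCs (1.63%) and 86 lower (0.628%). The log2 fold change was above 0 for 7 of the 9, with a median of 0.38 against -0.0049 over all genes tested. With total counts it was above 0 for 2 of the 9, Nfe2l2 and Gclm, with a median of -0.11 against -0.50 over all genes. In 6 of the 9 the lower old pool lay above the higher young pool, an order found in 24% of all genes, and in none did the higher old pool lie below the lower young pool, an order found in 23.6%. An unadjusted p under 0.05 was reached by 3 of the 9, against 16.9% of all genes. The genes were chosen with earlier results of these data known. The study had already listed Nfe2l2 and Gclm as higher in old ISCs from the same pools, so these shares are not those of an independent choice.

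**Figure D1:**
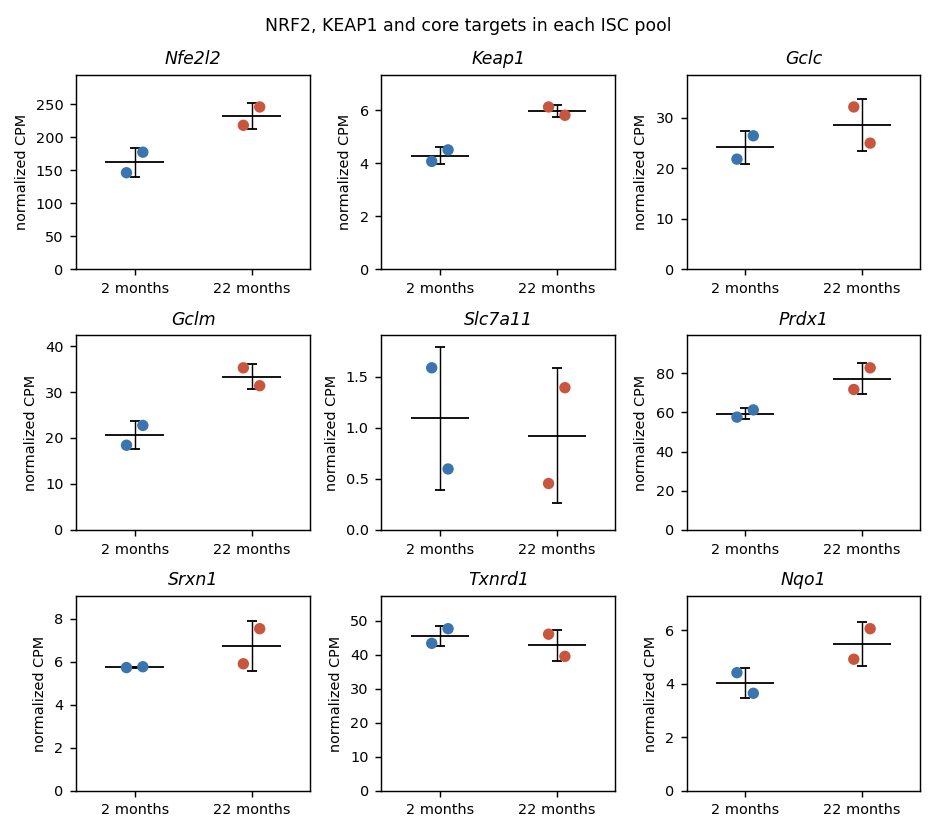
Normalized CPM (TMM) of the 9 NRF2 genes with enough reads, 1 panel a gene, with each point 1 pool (blue, 2 months; red, 22 months), the line the mean and the bar ± SD of 2 pools. For Nfe2l2, Keap1, Gclm, Prdx1, Srxn1 and Nqo1 the red points sit above the blue points, whereas the ages overlap in Gclc, Slc7a11 and Txnrd1.

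Nfe2l2 lies on chromosome 2 from 75675513 to 75704641 (GRCm38, GENCODE vM21), and its exons overlap no other gene. It had 2117 and 2675 reads in the young pools, against 2881 and 3002 in the old pools. In normalized CPM these were 146 and 177 in young and 218 and 246 in old ISCs, so that the lowest old pool lay above the highest young pool. The log2 fold change of 0.52 had a 95% interval of 0.26 to 0.78 (FDR = 0.030), a 1.43-fold rise that was not called without young pool 1 (FDR = 0.391). It ranked 218 by p among the genes tested.

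Keap1, on chromosome 9 from 21229730 to 21239361, was read far less than the factor it binds, with 59 and 68 reads in young pools and 81 and 71 in old pools. These gave 4.07 and 4.51 normalized CPM in young and 6.13 and 5.81 in old ISCs, without overlap. The log2 fold change of 0.48 had an interval of -0.091 to 1.05 and did not pass the test (FDR = 0.395). The size of the estimate was close to that of Nfe2l2, but at this depth its interval was wider and included 0. The exons of Keap1 overlap those of Gm16754, a gene on the opposite strand with 10 to 55 reads, over 510 bp, and reads there cannot be told apart if the counting ignored strand.

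**Figure D2:**
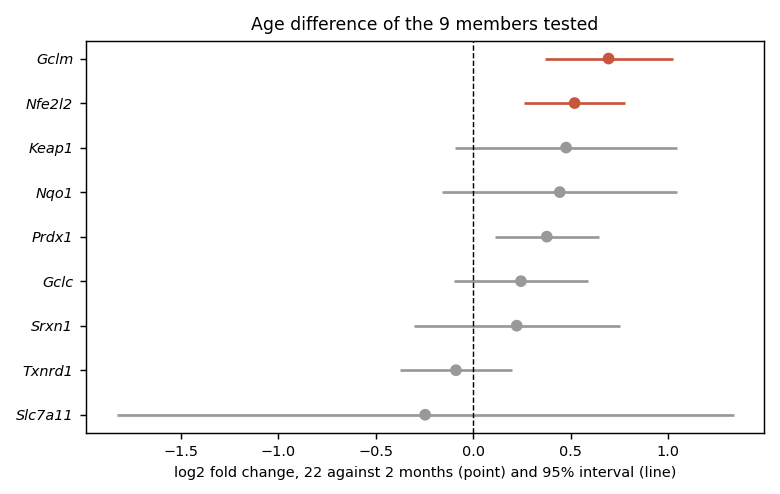
Log2 fold change of old against young ISCs for the 9 NRF2 genes tested (point) with its 95% interval (line), red where the FDR was under 0.05. Gclm (0.69) and Nfe2l2 (0.52) are red, Prdx1 (0.38) has an interval above 0 without passing the adjusted test, and Slc7a11 has the widest interval.

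Glutathione synthesis starts with glutamate-cysteine ligase, a dimer of the catalytic subunit Gclc and the modifier subunit Gclm, which raises the efficiency of the enzyme. Gclm, on chromosome 3 from 122245557 to 122270732, had 267 and 343 reads in young pools and 466 and 383 in old pools. Its normalized CPM of 18.4 and 22.7 in young and 35.3 and 31.4 in old ISCs did not overlap. The log2 fold change was 0.69 (interval 0.37 to 1.02, FDR = 0.023), or 1.62-fold, the largest estimate among the 9 genes, and it was not called without young pool 1 (FDR = 0.267). Over 540 bp the exons of Gclm overlap those of Gm17494, on the opposite strand with 6 to 23 reads per library, or of Gm6061, with 0 reads in each. Of its 50-base stretches, 4.58% also occur in other transcripts, Ppia among them. Gclc, on chromosome 9 from 77754535 to 77794485, had 316 and 399 reads in young pools and 425 and 305 in old pools. Its normalized CPM of 21.8 and 26.4 overlapped the 32.2 and 25.0 of old ISCs, and the log2 fold change of 0.25 (interval -0.099 to 0.59, FDR = 0.479) did not pass the test. Thus old pool 1 held the highest and young pool 1 the lowest value of both subunits.

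The ratio of both subunits within a pool does not depend on how libraries are scaled. There were 0.845 and 0.860 reads of Gclm per read of Gclc in young pools (95% Wilson intervals 0.718 to 0.994 and 0.744 to 0.993) and 1.10 and 1.26 in old pools (lower bounds 0.962 and 1.08). Both old ratios lay above both young ratios, though the interval of old pool 1 overlapped those of the young pools. Per kb of exon the ratio was 0.506 and 0.515 in young and 0.656 and 0.752 in old ISCs. The intervals of read ratios cover counting error only, as reads amplified without molecular identifiers are not independent molecules. This ratio and the others below were chosen after the values were seen, and their difference between ages was not tested.

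**Figure D3:**
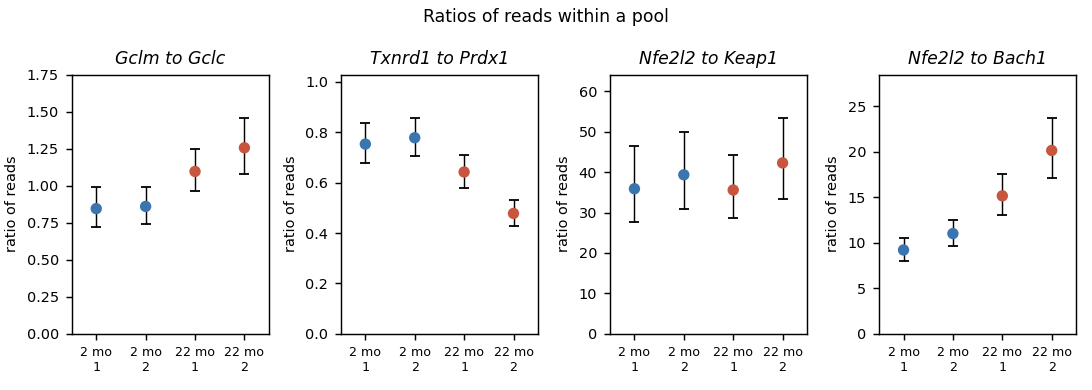
Ratio of reads of gene pairs within each pool (point; blue, 2 months; red, 22 months) with its 95% Wilson counting interval (bar). Gclm to Gclc and Nfe2l2 to Bach1 are higher in both old pools, Txnrd1 to Prdx1 is lower in both, and Nfe2l2 to Keap1 overlaps between ages.

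Slc7a11 encodes the light chain of the cystine importer that supplies cysteine for glutathione. It was close to the limit of detection, with 23 and 9 reads in young pools and 6 and 17 in old pools, or 1.59, 0.596, 0.454 and 1.39 normalized CPM. The pools of each age spread over nearly the same range, and the log2 fold change of -0.25 had an interval of -1.83 to 1.34 (FDR = 0.908). At this depth no difference was detectable. Hmox1, the inducible haem oxygenase and a strongly stress-responsive target, had 0 and 1 reads in young and 0 and 0 in old pools and was not tested. A floor of 3 reads stands for 0.199 to 0.246 normalized CPM in these libraries.

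The thioredoxin branch reduces peroxides through peroxiredoxins, which sulfiredoxin repairs and thioredoxin reductase keeps supplied with electrons. Prdx1, the abundant cytosolic peroxiredoxin on chromosome 4 from 116685544 to 116700822, had 835 and 925 reads in young pools and 948 and 1011 in old pools. Its normalized CPM was 57.6 and 61.3 in young and 71.7 and 82.8 in old ISCs, without overlap. The log2 fold change of 0.38 had an interval of 0.11 to 0.64 and an unadjusted p of 0.0080 in the fit across all genes, but did not pass after adjustment (FDR = 0.132). Of the 50-base stretches of Prdx1 transcripts, 8.81% also occur in transcripts of other loci, so that its count is somewhat uncertain. Srxn1, the sulfiredoxin gene on chromosome 2 from 152105516 to 152111376, had 83 and 87 reads in young and 78 and 92 in old pools. At 5.73 and 5.77 against 5.90 and 7.53 normalized CPM it gave a log2 fold change of 0.22 (interval -0.31 to 0.75, FDR = 0.707).

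Txnrd1, the cytosolic thioredoxin reductase on chromosome 10 from 82833951 to 82897712, had fewer reads in both old pools (609 and 483) than in both young pools (629 and 720). After normalization the ages overlapped, at 43.4 and 47.7 normalized CPM in young and 46.1 and 39.6 in old ISCs. Its log2 fold change was -0.089, with an interval of -0.38 to 0.20 that lies below the estimates of Nfe2l2 and Gclm (FDR = 0.799). Reads of Txnrd1 per read of Prdx1 were 0.753 and 0.778 in young pools and 0.642 and 0.478 in old pools, lower in both old pools, though the interval of old pool 1 (0.580 to 0.711) overlapped those of both young pools. Reads of Srxn1 per read of Prdx1 were also lower in both old pools, at 0.0994 and 0.0941 in young and 0.0823 and 0.0910 in old ISCs, and their counting intervals overlapped between ages. Nqo1, a quinone reductase much used as a readout of NRF2 activity, lies on chromosome 8 from 107388225 to 107403206. It had 64 and 55 reads in young and 65 and 74 in old pools. At 4.42 and 3.64 against 4.92 and 6.06 normalized CPM the ages did not overlap, and the log2 fold change of 0.44 (interval -0.16 to 1.05, FDR = 0.462) did not pass the test.

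The rise of Nfe2l2 and Gclm kept its sign but not its FDR under all ways of processing. Among 14 other fits on all pools, including the limma voom with sample quality weights of the study's methods, each had an FDR under 0.05 in 11. Over all genes, these methods called 2.34% (voom with weights), 2.22% (voom without), 1.44% (DESeq2), 4.46% (edgeR likelihood ratio test), 2.26% (DESeq2 size factors), 2.12% (upper quartile), 2.21% (TMM without mitochondrial genes), 2.24% (all genes with a read), 2.02% (filterByExpr), 2.11% (10 or more counts in each library) and 4.55% (replicate block). Scaling by total counts alone, which set the median over all genes tested to a log2 fold change of -0.50 and the calls to 96 higher and 4554 lower, gave 0.036 for Nfe2l2 (FDR = 0.845) and 0.21 for Gclm (FDR = 0.341), or 0.53 and 0.70 above that median. Under the same scaling Txnrd1 was called lower, at -0.58 (FDR = 0.0057), which is 0.084 below that median, and 34% of all genes were called. Offsets for exonic GC content and length in each library gave 0.42 for Nfe2l2 (FDR = 0.136) and 0.63 for Gclm (FDR = 0.064), with 0.913% of all genes called, or 0.387% when a replicate block was added (neither gene called). The difference between ages varied with the GC content of genes in these libraries. The median log2 fold change ran from 0.10 among the 2648 genes of lowest GC content (up to 42.9%) to -0.17 among the 2647 of highest GC content (54.1% and over). Gclm, at 42.9%, was among the former, Nfe2l2, at 44.8%, just above them, and Keap1, at 59.1%, among the latter. Without young pool 1 the log2 fold changes were 0.39 for Nfe2l2 (FDR = 0.391) and 0.55 for Gclm (FDR = 0.267), and without any other pool both were called. Of all genes, 1.15% were called without young pool 1, 2.17% without young pool 2, 4.8% without old pool 1 and 5.22% without old pool 2. Without old pool 1 Prdx1 was called too (0.48, FDR = 0.022).

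**Figure D4:**
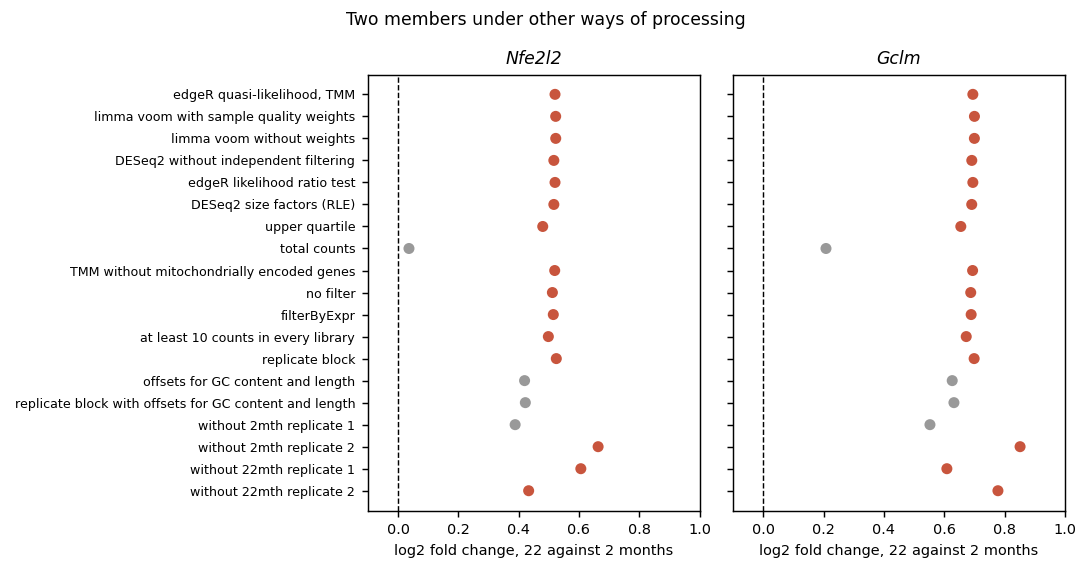
Log2 fold change of Nfe2l2 and Gclm (old against young) under each way of processing, 1 row each, red where the FDR was under 0.05. All values lie above 0; those not called are scaling by total counts, both fits with offsets for GC content and length, and the fit without young pool 1.

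Per kb of exon, the level of Nfe2l2 stood above the other NRF2 genes at 51.8 normalized CPM per kb, averaged over both ages, and ran from 38.5 to 64.8 over the 4 pools. Prdx1 followed at 22.5 (18.9 to 27.2), with no overlap with Nfe2l2 or with the genes below it. Gclc (5.79 to 8.54 over the 4 pools), Txnrd1 (mean 6.24), Gclm (4.28), Nqo1 (3.07) and Srxn1 (2.21) came next, and each overlapped its neighbour in this order over the 4 pools. Keap1 (1.09, from 0.867 to 1.31) and Slc7a11 (0.0724) were lower, without overlap between them. Per kb, Nfe2l2 exceeded Keap1 by 44.4 and 48.6 times in young pools and by 44.0 and 52.3 times in old pools, ranges that overlap. RNA levels of this kind do not give the ratio of the proteins.

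The other genes of the pathway were taken from 11 lists by role, of which 87 genes were tested. Of these, 5 were higher in old ISCs at an FDR under 0.05 and none was lower, against 2.26% of all genes called. That count was 1 without young pool 1, 0 with the offsets and a replicate block, and 24 with total counts, of which 1 was higher and 23 were lower. An unadjusted p under 0.05 was reached by 27, against 16.9% of all genes. The old pools stood wholly above the young pools in 39 of the 87 and wholly below them in 14, orders found in 24% and 23.6% of all genes. The 5 genes called encode enzymes that handle glutathione, peroxide or NADPH.

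Among regulators, 0 of 10 genes of the NRF2 degradation machinery were called by edgeR (1 at an unadjusted p under 0.05), with a median log2 fold change of 0.22 (0.13 without young pool 1 or without old pool 1). Cul3, the scaffold of the ligase that KEAP1 recruits, had the lowest p, at 65.8 and 73.1 normalized CPM in young and 91.7 and 88.5 in old ISCs (0.38, FDR = 0.121). Of 4 proteins tested that bind KEAP1, 0 were called (0 at an unadjusted p under 0.05), and the median was -0.29 (-0.049 without young pool 2 and -0.15 without old pool 2). Sqstm1, the autophagy receptor p62 that can displace NRF2 from KEAP1, had 6.97 and 6.96 normalized CPM in young and 5.60 and 4.83 in old ISCs (-0.41, FDR = 0.428). Of 7 CNC-bZIP relatives and small MAF partners tested, 0 were called (0 at an unadjusted p under 0.05), with a median of -0.26, and Nfe2l3 had the lowest p (-0.58, FDR = 0.400). In these 3 lists the limma voom and DESeq2 fits run here called 0 genes as well. The study's own list of differentially expressed genes, however, holds Cul3 as higher in old ISCs. Scaling by total counts called 2, 2 and 4 genes of these lists, with medians of -0.27, -0.77 and -0.76 where all genes had -0.50.

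Bach1, a repressor that competes with NRF2 for antioxidant response elements, was singled out after its values were seen. It had 230 and 243 reads in young pools and 190 and 149 in old pools, or 15.9 and 16.1 against 14.4 and 12.2 normalized CPM. Both old pools lay lower, but the log2 fold change of -0.26 (interval -0.65 to 0.12, FDR = 0.491) did not pass the test. Within a pool there were 9.20 and 11.0 reads of Nfe2l2 per read of Bach1 at 2 months and 15.2 and 20.1 at 22 months, and the counting intervals of both ages did not overlap (8.03 to 12.6 in young, 13.1 to 23.8 in old). The ratio of Nfe2l2 to Keap1, at 35.9 and 39.3 against 35.6 and 42.3, overlapped between ages.

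**Figure D5:**
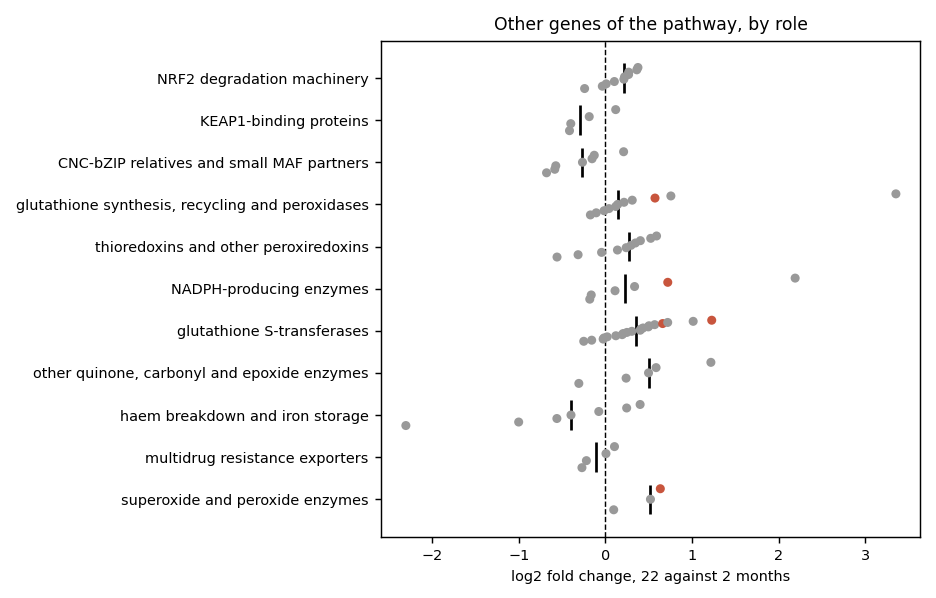
Log2 fold change of old against young ISCs for the 87 other pathway genes tested, 1 row per list (point, gene; black line, list median; red, FDR under 0.05). The 5 red genes lie to the right, in the lists of glutathione, NADPH-producing, glutathione S-transferase and peroxide enzymes.

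Among effector enzymes, 1 of 11 genes of glutathione synthesis, recycling and peroxidases was called, against 2.26% of all genes, with a list median of 0.14 (0.090 without old pool 1, and -0.36 with total counts). It was Gsr, the glutathione reductase, which had 53.6 and 58.6 normalized CPM in young and 81.8 and 85.1 in old ISCs (0.57, interval 0.31 to 0.83, FDR = 0.020). Of 20 glutathione S-transferases tested, 2 were called and in 12 the old pools stood wholly above the young pools, with a median of 0.35, where all genes gave 2.26%, 24% and -0.0049. That median was 0.22 without old pool 1, and -0.14 with total counts, where all genes had -0.50. Gsta4, which conjugates lipid peroxidation products, had 3.79 and 6.43 normalized CPM in young and 11.7 and 12.3 in old ISCs (1.23, FDR = 0.014). Gstm3 had 29.2 and 30.6 in young and 47.1 and 47.5 in old ISCs (0.66, FDR = 0.014). Both genes separated the ages by more than the spread of the pools.

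Of 3 superoxide and peroxide enzymes tested, 1 was called, against 2.26% of all genes: Cat, the catalase that breaks down hydrogen peroxide. It had 177 and 179 normalized CPM in young and 266 and 285 in old ISCs (0.63, interval 0.40 to 0.87, FDR = 0.0046). Of 6 NADPH-producing enzymes, 1 was called: Idh1, the cytosolic isocitrate dehydrogenase, at 16.1 and 15.6 normalized CPM in young and 29.1 and 23.3 in old ISCs (0.72, FDR = 0.027), a call that DESeq2 did not make. Under offsets for GC content and length Gsr, Gsta4, Gstm3 and Cat were called (FDR between 0.025 and 0.049) and Idh1 was not (FDR = 0.107), while the same offsets with a replicate block called none of the 5 (FDR between 0.072 and 0.163). Scaling by total counts left Gsta4 (0.75, FDR = 0.024) alone of the 5, and without young pool 1 Cat alone was called (FDR = 0.027). Idh1 was also not called without young pool 2 (FDR = 0.084) or without old pool 1 (FDR = 0.084), and the other 4 were called without each of the pools other than young pool 1.

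In the 4 lists that remain no gene was called by edgeR, limma voom or DESeq2. Over all genes, 16.9% had an unadjusted p under 0.05 and the median was -0.0049. Of 10 thioredoxins and other peroxiredoxins, 5 had an unadjusted p under 0.05 and the median was 0.27 (0.41 without old pool 1 and 0.074 without old pool 2). The lowest p there belonged to Txnip, an inhibitor of thioredoxin, at 117 and 95.3 normalized CPM in young and 137 and 143 in old ISCs (0.40, FDR = 0.104). Of 5 other quinone, carbonyl and epoxide enzymes tested, 2 had an unadjusted p under 0.05, led by the carbonyl reductase Cbr1 (0.50, FDR = 0.204), and the median was 0.50 (0.086 without old pool 2). Of 7 genes of haem breakdown and iron storage, 4 did, led by Fech (0.40, FDR = 0.228), the ferrochelatase that inserts iron into protoporphyrin in the last step of haem synthesis, with a median of -0.40 (-0.027 without old pool 1 and -0.65 without old pool 2). Of 4 multidrug resistance exporters none did, with a median of -0.11 that changed sign without old pool 1 (0.12) and was -0.25 without old pool 2 and -0.066 without young pool 2, and Abcc2 had the lowest p (-0.27, FDR = 0.299). Scaling by total counts called 3, 1, 2 and 2 genes of these lists, with medians of -0.22, 0.0057, -0.88 and -0.59 against -0.50 over all genes. A replicate block called 1 thioredoxin or peroxiredoxin gene, and without old pool 1 there were 2 such calls and 1 among the quinone, carbonyl and epoxide enzymes.

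Genes whose pattern over the 4 pools was most like that of Nfe2l2 were ranked by the root mean square difference of log2 normalized CPM (with 0.5 added), each gene centred on its mean, over 6127 other genes of at least 10 normalized CPM on average. Among the nearest were Sptlc2, a subunit of serine palmitoyltransferase (0.020), the locus Gm13341 (0.020), the deubiquitinase gene Usp12 (0.034) and a gene listed only under a date-like name (0.036). None of these 4 had an FDR under 0.05. Among the NRF2 genes, Prdx1 ranked 154 (0.10), Gclm 491 (0.15), Gclc 1917 (0.24) and Txnrd1 4093 (0.34), and the others were below the level set for this ranking. With 4 pools this measure is a description only.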

How the data were processed

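RNA of sorted ISCs was sequenced as 4 FL libraries, 2 per age. The authors trimmed reads with Trimmomatic 0.30, aligned them to GRCm38 with STAR 2.4.2a, counted reads in exons of GENCODE vM15 with featureCounts and deposited raw counts per gene, without normalization or filter. The strand setting of the counting is not given in the sources used here. Ages and replicates come from the labels. No column of per-sample values was left unused (0 of 4 columns).

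Genes with over 5 reads and over 1 CPM in at least 1 library were compared with edgeR 4.0.16 (R 4.3.3; TMM, glmQLFit, glmQLFTest, threshold FDR 0.05, no covariate). Standard errors and 95% intervals came from the log2 fold change and F. The test used in the study, limma voom weighted by sample quality (limma 3.58.1), was run as an alternative, as were DESeq2 1.42.0, other scalings and filters, a replicate term, each library left out, and GC and length offsets (lowess, span 0.3, 3 iterations; 96.7% of genes tested had both values). The edgeR, limma and DESeq2 fits, the replicate term and the offsets were tested on simulated data; the other scalings and filters and the left-out libraries were not. Lengths, GC content and positions come from GENCODE vM21, matched by symbol.

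The 10 genes and the lists were chosen with earlier results of these data known, and p-values adjusted over a list alone are not given. Genes named are the 10, the list genes with FDR under 0.05 (at most 5 a list), the gene of lowest p in a list where none passed, and the 5 most like Nfe2l2, of which 1 is not reported here. Replicate libraries differed by more than counting noise (chi-square per gene of 9.42 in ISC_2mth and 7.11 in ISC_22mth). With 2 pools an age, an exact two-sided permutation test of 1 gene cannot give a p below 0.333, so none is given.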

Additional observations from a re-analysis of the deposited data

How the results depend on the processing

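Genes called over the whole table numbered 309, and 197 by DESeq2, 611 by the likelihood ratio test, 554 without a filter, 4650 with total counts, 125 with offsets for GC content and length, and 151 to 710 with a pool left out, of which the fits without young pool 1 (151), old pool 1 (652) and old pool 2 (710) moved most. The NRF2 genes called numbered 2, and 1 with total counts, 0 with the offsets, and 0 to 3 with a pool left out (0 without young pool 1). Other pathway genes called numbered 5, and 8 by the likelihood ratio test, 24 with total counts (1 higher and 23 lower), and 1 to 9 with a pool left out (1 without young pool 1, 9 without old pool 1 and 9 without old pool 2). The cause of these shifts was not tested.

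With total counts the log2 fold change changed sign, short of an FDR under 0.05, for Keap1 (-0.012), Nqo1 (-0.049), Gclc (-0.24), Srxn1 (-0.26) and Prdx1 (-0.11), with the median over all genes at -0.50. With a pool left out, Slc7a11 ran from -1.24 to 0.61 and Txnrd1 from -0.20 to 0.018. Slc7a11 changed sign without young pool 1 (0.61) and without old pool 1 (0.35), and Txnrd1 without old pool 2 (0.018). With a pool left out, 1 age has a lone pool, assumed to vary like the other age.

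Replicate numbers are shared by both ages but name different animals, and deviations of same-numbered pools correlated at -0.0031 over 13692 genes, so they were not taken as pairs. A replicate block gave 623 genes, 2 NRF2 genes (Nfe2l2 and Gclm) and 9 other pathway genes. The replicate block with offsets for GC content and length gave 53, 0 and 0.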
